A study of Mus musculus and Mus spretus with 72 samples.

Results

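Serpins, the serine protease inhibitors, were followed through 72 two-channel arrays of mouse brain, liver/kidney and testis. The members are all probes whose single gene symbol starts with Serpin, which gave 34 probes for 32 genes, of 22089 probes for 14386 gene symbols in all. The letter after Serpin names the clade. Clade a held 12 probes for 12 genes and the other clades 22 probes, of which 13 were clade b, 1 clade c, 1 clade d, 2 clade f, 1 clade g, 2 clade h and 2 clade i.

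On each array, RNA of 1 male mouse was hybridised beside RNA pooled from that tissue of 9 C57BL6 mice, a laboratory inbred strain. The mice were about 12 weeks old, and the same animals gave all 3 tissues. In each tissue there were 3 Mus spretus, 6 M. musculus whose sub-species the labels leave unnamed (ssp), 3 M. m. castaneus (cas), 6 M. m. musculus (mus) and 6 M. m. domesticus (dom). The last 4 are called the musculus groups here, and the labels name liver and kidney together as 1 sample. All values are log2 ratios of a mouse to the pool on the scale assumed for the deposited values, so they are differences from the pool and not transcript levels. The labels' tissue identity could therefore not be read from the levels of defining markers. One brain array, mus 08, carries domesticus in its second channel's label and mus in its title, and was kept as mus. The comparisons address differences in these ratios among sub-species and between species, organ by organ. Probe sequences were not used, so the part of sequence differences between the mice and the probes in these ratios was not tested.

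A serpin presents a flexible loop as bait. A protease that cuts the loop is trapped in a covalent complex with the distorted inhibitor. Most clade a serpins are secreted by the liver into plasma: the Serpina1 genes encode forms of alpha-1-antitrypsin, an inhibitor of neutrophil elastase, and mice carry several close copies of the gene where humans have a single one. Some clade a members carry hormones instead, such as Serpina6, the corticosteroid-binding globulin. Clades c, d, f and g include plasma inhibitors of clotting, fibrinolysis and complement (antithrombin, heparin cofactor II, alpha-2-antiplasmin, C1 inhibitor), most clade b serpins act inside cells, Serpinh1 is a collagen chaperone of the endoplasmic reticulum, and Serpini1 is neuroserpin, a neuronal inhibitor of tissue plasminogen activator.

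All 12 clade a genes lie on chromosome 12. The 12 clade b genes lie on chromosomes 1 and 13, with 6 on each. The Serpina1 copies are close in sequence, so a probe for one copy may also read the others. Probe sequences were not used here, and how far the 5 Serpina1 probes separate their genes was not tested.

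The RefSeq windows upstream of Serpina1a, Serpina1b and Serpina12 are shown because these genes carry the liver/kidney results. Each runs 250 bases before to 50 after the gene's start on the minus strand of GRCm38.p6, and 28 of the 32 serpin genes had such a window. Serpina1a lies at chr12:103863570-103863869, Serpina1b at chr12:103738140-103738439 and Serpina12 at chr12:104044394-104044693. Capitals mark a stretch of 59 bases that Serpina1a, Serpina1b, Serpina1c, Serpina1d and Serpina1e share letter for letter.
Serpina1a: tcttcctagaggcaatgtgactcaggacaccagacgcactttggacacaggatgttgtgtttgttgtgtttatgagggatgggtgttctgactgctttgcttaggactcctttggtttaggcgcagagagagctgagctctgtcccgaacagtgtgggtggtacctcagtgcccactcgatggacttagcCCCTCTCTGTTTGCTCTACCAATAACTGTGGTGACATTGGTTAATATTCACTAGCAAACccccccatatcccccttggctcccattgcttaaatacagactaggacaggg
Serpina1b: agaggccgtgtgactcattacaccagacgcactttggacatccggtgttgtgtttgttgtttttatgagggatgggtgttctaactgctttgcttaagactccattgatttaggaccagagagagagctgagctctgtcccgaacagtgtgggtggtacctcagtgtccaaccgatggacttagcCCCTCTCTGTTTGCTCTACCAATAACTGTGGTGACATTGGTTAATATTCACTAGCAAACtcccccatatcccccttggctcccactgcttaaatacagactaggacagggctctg
Serpina12: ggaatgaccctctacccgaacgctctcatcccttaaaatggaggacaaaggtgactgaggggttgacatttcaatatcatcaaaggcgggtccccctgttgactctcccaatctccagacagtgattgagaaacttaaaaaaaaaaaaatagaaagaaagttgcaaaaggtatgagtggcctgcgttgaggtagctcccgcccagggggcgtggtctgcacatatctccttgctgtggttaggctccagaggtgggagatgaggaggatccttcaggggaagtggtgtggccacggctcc

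Of 32851 windows of this length, 5 (0.0152%) held the shared stretch on either strand, those of Serpina1a to Serpina1e. Over the 10 pairs of these 5 genes, aligned bases of the windows were 91.7% to 98.4% identical. The stretch is repeated here with the letters GTTAAT in capitals, a half-site of the kind bound by the liver transcription factor HNF1.
Shared stretch: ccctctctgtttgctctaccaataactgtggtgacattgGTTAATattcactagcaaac

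The letters GTTAAT stood on either strand in 2332 of the 32851 windows (7.10%), once in each Serpina1 window and not in that of Serpina12. The letters TATAAA stood in 4473 windows (13.6%) and in none of the 6 windows examined. These matches describe letters in a window and nothing was drawn from them about a factor.

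A probe was tested in a tissue if every group had at least 2 values, which 28 of the 34 serpin probes met in brain and as many in liver/kidney, and 29 met in testis. Each tissue had 5 contrasts: mus against dom, cas against dom and mus, ssp against those 3, spretus against the 4 musculus groups, and the musculus groups against the pool. A probe was called changed at an adjusted p under 0.05 in limma, with Benjamini-Hochberg adjustment over all probes tested in the tissue. The arrays fell into 4 sets that share their missing spots, here array sets 1 to 4, which hold 46, 23, 2 and 1 arrays. In liver/kidney all spretus and cas arrays lie in sets 2 and 3 and all ssp, mus and dom arrays in set 1, so in that tissue set and group cannot be told apart for any comparison of spretus or cas with those groups. The lowest correlation of ratios between arrays was -0.179 among brain arrays, -0.0769 among liver/kidney arrays and -0.293 among testis arrays. Duplicate spots correlated at a median of 0.559 (range 0.273 to 0.785) within an array. In bulk tissue, fewer cells of a type and less RNA per cell cannot be told apart.

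**Figure D1:**
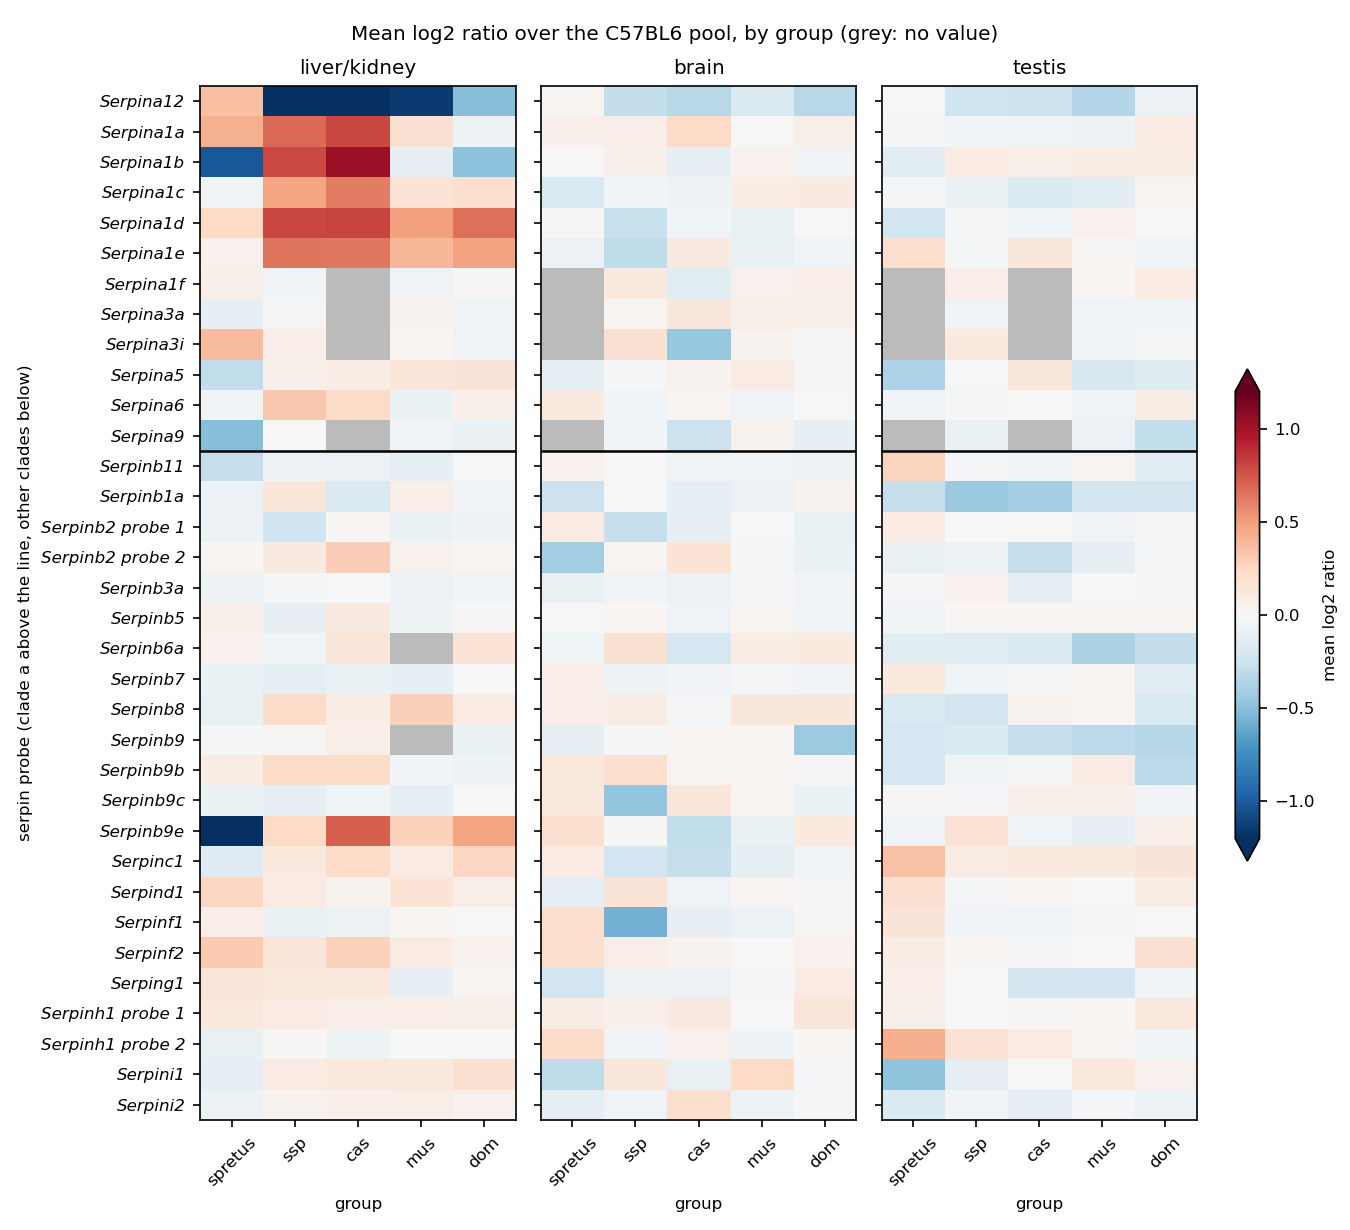
Mean log2 ratio to the C57BL6 pool of 34 serpin probes, one line per probe and one column per group within each tissue, with clade a above the dividing line and grey where a group has no value. In liver/kidney the Serpina1a to Serpina1e probes are above the pool in the ssp and cas columns, while Serpina1f has no value in cas. Serpina12 is below the pool in all 4 musculus columns but not in spretus.

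In liver/kidney, 3 of 28 serpin probes were called in spretus, where 7.49% of all probes tested were called. All 3 were clade a: Serpina12 rose, and Serpina1b and Serpina5 fell. The median difference was -0.40 over 8 clade a probes, with 2 above 0 and 6 below, -0.02 over 20 probes of the other clades, and -0.00 over all probes tested. The median size of the difference, sign aside, was 0.43 in clade a, 0.10 in the other clades and 0.11 over all probes.

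Serpina12 encodes vaspin, a serpin known as an adipokine and an inhibitor of kallikrein 7. Its log2 ratios were 0.51, -0.14 and 0.70 in spretus mice 01, 02 and 03. In the musculus groups they ran over -2.08, -0.94 and -0.71 (lowest, median, highest) in ssp, -1.11, -1.34 and -1.14 in the 3 cas, -1.46, -1.19 and -0.63 in mus, and -0.76, -0.48 and -0.27 in dom. No spretus array overlapped any musculus array, and the dom mice were the nearest. The difference, spretus minus the musculus groups, was 1.37 ± 0.22 (SE; 2.58-fold higher; limma adjusted p = 0.000498; 3 of 3 mice on that side). Within array set 2, for spretus 01 and 03 against cas alone, it was 1.80 with adjusted p = 0.0569.

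Serpina1b, one of the alpha-1-antitrypsin copies, showed -0.78, -1.98 and -0.31 in spretus mice. The 21 musculus arrays ran over -1.0, -0.01 and 1.72 (lowest, median, highest). Spretus 02 lay below every other array, and the other 2 spretus mice lay within the dom range. The difference was -1.33 ± 0.32 (SE; 2.51-fold lower; limma adjusted p = 0.0114). Without spretus 02, the one liver/kidney array of array set 3, it was -0.85 with adjusted p = 0.173.

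Serpina5, the protein C inhibitor, had ratios of -0.06, -0.66 and -0.16 in spretus mice, against -0.25, 0.13 and 0.42 (lowest, median, highest) in the musculus arrays. Spretus 02 was the lowest array and the other 2 overlapped the musculus range. The difference was -0.41 ± 0.11 (SE; 1.33-fold lower; limma adjusted p = 0.0205), and -0.23 with adjusted p = 0.289 without spretus 02.

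Serpina1e had -0.19, 0.20 and 0.16 in spretus mice, against -0.12, 0.46 and 1.27 (lowest, median, highest) in the musculus arrays, a difference of -0.48 with adjusted p = 0.164. Serpina1a had 0.30 and 0.54 in spretus mice 01 and 02, with no value in 03, so that its fit rests on 2 spretus mice, and Serpina1c had 0.32, -1.02 and 0.60. The largest difference among the other clades was that of Serpinb9e, a clade b gene close to the granzyme B inhibitor Serpinb9, at -2.07 ± 0.69 (SE; adjusted p = 0.0662). Its 3 spretus values were 0.31, -5.74 and 0.49, and the -5.74 rests on 1 spot whose deposited value, -5.71, is the lowest of all arrays, while its duplicate spot has no value. The other probes of clades b to i lay between -0.32 and 0.17, with Serpinf2, alpha-2-antiplasmin, at 0.17 and Serpind1, heparin cofactor II, at 0.15.

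Markers of hepatocytes, kidney epithelium and blood cells were counted in the same contrast, where 7.49% of all probes tested were called. Of 19 hepatocyte probes tested, 0 rose and 4 fell in spretus, among them Ttr (-1.22), Trf (-0.48) and Fgb (-0.42), with a median of -0.12. Means were taken over those of 20 hepatocyte probes with a value, so the probes averaged can differ between arrays. They were -0.05, -0.19 and 0.05 in spretus mice 01 to 03, against 0.02 to 0.29 in the musculus arrays, so that spretus 03 overlapped these. Of 15 kidney probes, 1 rose (Umod, 0.72) and 1 fell (Slc5a2, -0.40), with a median of 0.06, and their mean was 0.09, -0.07 and 0.20 in spretus mice, against -0.21 to 0.14. Of 13 blood cell probes, Hbb-b2 rose (0.74) and Epb42 (-0.61) and Camp (-0.35) fell, with a median of -0.12. The share of these marker differences in the serpin differences was not tested.

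**Figure D2:**
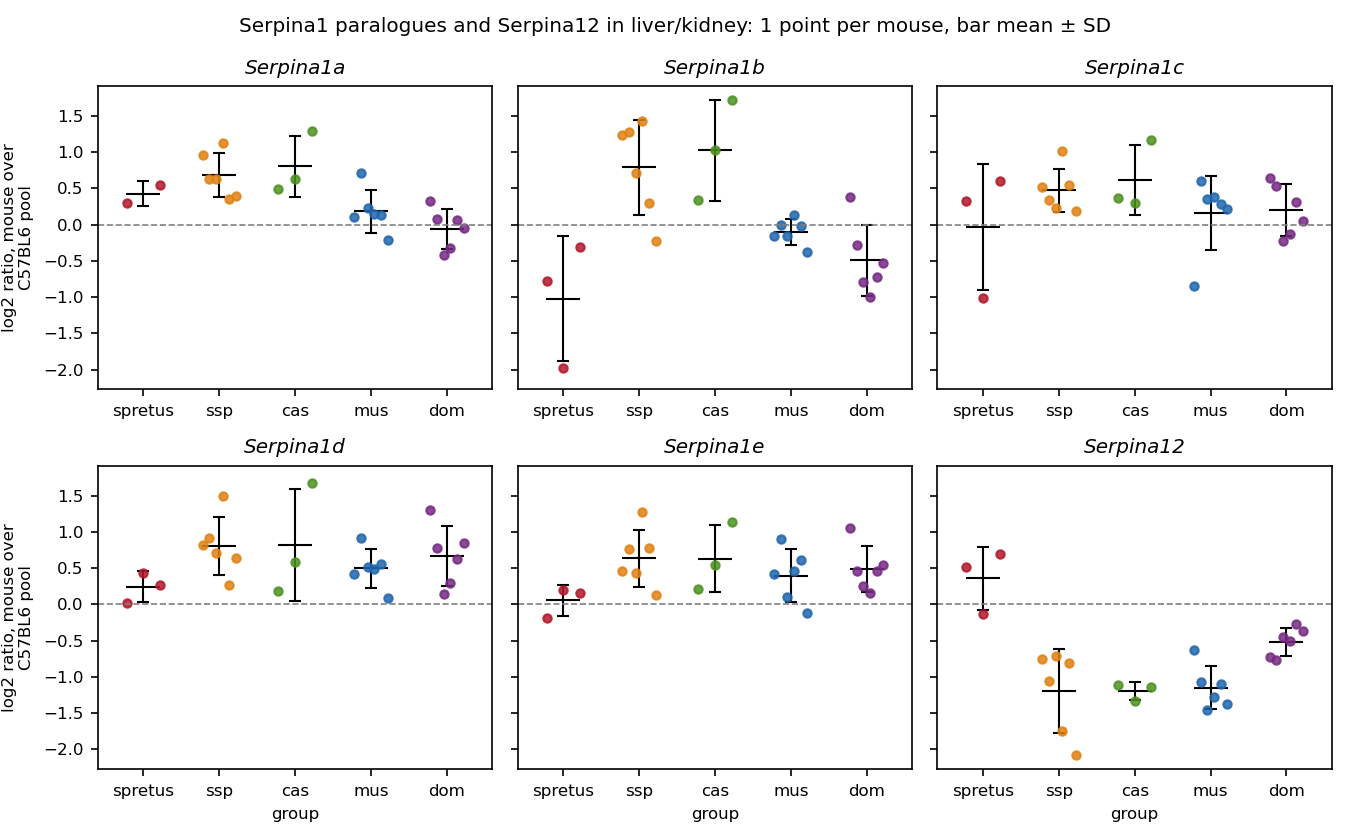
Log2 ratio to the pool in liver/kidney for Serpina1a to Serpina1e and Serpina12, 1 point per mouse, with the mean and SD of each group. Serpina12 is at 0.51, -0.14 and 0.70 in spretus and below 0 in all 21 musculus mice, while Serpina1b is highest in cas and ssp and lowest in spretus.

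In cas liver/kidney, 2 of 28 serpin probes were called against dom and mus, both higher in cas and both alpha-1-antitrypsin copies, where 1.11% of all probes were called. Serpina1a had 0.49, 0.63 and 1.29 in cas, against -0.22, 0.14 and 0.71 (lowest, median, highest) in mus and -0.42, 0.01 and 0.32 in dom. All 3 cas mice lay above the dom mice, and 1 mus mouse fell inside the cas range. The difference was 0.74 ± 0.18 (SE; 1.67-fold higher; limma adjusted p = 0.0478), and 0.50 with adjusted p = 0.327 without cas 03. Serpina1b had 0.33, 1.02 and 1.72 in cas, against -0.38, -0.09 and 0.14 in mus and -1.0, -0.63 and 0.38 in dom. Only 1 dom mouse reached the cas range. The difference was 1.32 ± 0.33 (SE; 2.50-fold higher; limma adjusted p = 0.0482), and 0.97 with adjusted p = 0.292 without cas 03. The clade a median was 0.23, with 6 of 8 probes above 0, against 0.00 in the other clades and 0.01 over all probes. With array set as a random block the differences were 0.78 for Serpina1a and 1.02 for Serpina1b, and neither call held (adjusted p = 1 for both). Serpina1c differed by 0.43 (adjusted p = 0.513), and the lowest values were those of Serpina12 (-0.36), Serpinb1a (-0.19) and Serpinb8 (-0.11). In the same contrast 0 of 19 hepatocyte probes were called by limma (5 unadjusted), 2 of 15 kidney probes rose (Umod 0.56 and Slc22a8 0.47) and 1 of 13 blood cell probes rose (Hba-a1 1.01), whose part in the serpin differences was not tested.

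The ssp mice had the same alpha-1-antitrypsin copies at the high end. Over all groups 0 of 28 serpin probes were called in ssp against dom, mus and cas (5 had an unadjusted p under 0.05, and 0.0436% of all probes were called by limma), and Serpina1b differed by 0.64 (adjusted p = 0.355), Serpina1a by 0.37 (0.337) and Serpina6 by 0.25 (0.258). The lowest values were Serpinb9e at -0.25, Serpina12 at -0.24 and Serpinb2 probe 1 at -0.20, with probe 2 at -0.02. Each of the Serpinb values rested on a single mouse: Serpinb9e was at 0.01 without ssp 05, itself at -1.07, and Serpinb2 probe 1 at -0.03 without ssp 06, itself at -1.11. The ssp, mus and dom arrays all lie in array set 1, and in a fit of those 18 arrays 4 serpin probes rose in ssp against dom and mus, where 1.6% of all probes were called. Serpina1b had -0.22, 0.98 and 1.43 (lowest, median, highest) in ssp, against -0.38, -0.09 and 0.14 in mus and -1.0, -0.63 and 0.38 in dom. Its difference was 1.09 ± 0.21 (SE; adjusted p = 0.0204), with 4 of 6 ssp mice above all mus and dom mice. Serpina1a had 0.35, 0.63 and 1.12 in ssp, overlapping 1 mus mouse at 0.71, and differed by 0.62 ± 0.13 (SE; adjusted p = 0.0255). Serpina6 ran over 0.03, 0.33 and 0.50 in ssp, against -0.26, -0.06 and 0.02 in mus and -0.11, 0.07 and 0.32 in dom, and differed by 0.33 ± 0.07 (SE; adjusted p = 0.0275). The groups overlapped in dom but not in mus. Serpinb9b ran over 0.01, 0.24 and 0.35 in ssp, against -0.19, -0.01 and 0.02 in mus and -0.20, -0.06 and 0.11 in dom, and differed by 0.27 ± 0.06 (SE; adjusted p = 0.0238). The mean over those of the 20 hepatocyte probes with a value was 0.02 to 0.22 in ssp, against 0.09 to 0.21 in mus and 0.11 to 0.29 in dom.

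Between mus and dom, 0 of 28 serpin probes were called in liver/kidney, where 0.591% of all probes were called, and 1 had an unadjusted p under 0.05. The largest differences were those of Serpina12, at -0.64 ± 0.20 (SE; adjusted p = 0.283), Serpina1b, at 0.39, and Serpina1a, at 0.24. In clade a the differences had a median of -0.06 and in the other clades of -0.00. Both groups of Serpina12 values lay below the pool, mus at -1.15 ± 0.30 and dom at -0.51 ± 0.19 (SD, n = 6 each), and the highest mus mouse lay above the 2 lowest dom mice. Serpinb8 (0.19), Serpinb9e (-0.20) and Serpina1d (-0.17) came next.

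Set against the pool, the musculus groups had 14 of 28 serpin probes called in liver/kidney, 13 higher and 1 lower, where 31.4% of all probes were called. In clade a 7 of 8 probes were higher and Serpina12 was lower, and the median difference was 0.33. In the other clades 6 of 20 were higher, with a median of 0.05, against -0.00 over all probes. Serpina12 was at -1.01 ± 0.08 (SE; 2.02-fold lower; limma adjusted p = 1.98e-09), below the pool in all 21 mice. Serpina1d was at 0.69 ± 0.09 (SE; adjusted p = 1.85e-06), above the pool in all 21 mice, and Serpina1e at 0.54 ± 0.08 (SE; adjusted p = 7.91e-06), above it in 20. Serpina1a (0.40), Serpina1c (0.36) and Serpina1b (0.31) were also higher, the last in 10 of 21 mice, as were Serpina6 (0.13) and Serpina5 (0.11). The Serpina1b value is a mean of group means. Its median over the 21 arrays was -0.01, and its dom mean of -0.49 lay below the pool. The Serpina1b call was lost in 16 of 24 fits that left out 1 mouse and in 6 of 11 other alternatives. Those called outside clade a were small: Serpinb8 (0.17, and 0.15 with adjusted p = 0.0783 without ssp 05), Serpinb9b (0.09), antithrombin Serpinc1 (0.17), Serpinf2 (0.14), Serpinh1 probe 1 (0.08) and neuroserpin Serpini1 (0.13). Serpinb9e was at 0.43 (adjusted p = 0.201), Serpinh1 probe 2 at -0.01, Serpinb2 probe 1 at -0.09 and Serpinb7 at -0.07. The pool is a single reference with no spread of its own and no exchange of the dyes is recorded in the labels, so any dye effect remains in these values. With array set as a random block 1 of the 28 was called. In this contrast 11 of 19 hepatocyte probes were higher and 2 lower, with a median of 0.15. Of 15 kidney probes 3 were higher and 4 lower, with Kap at -0.73 and Aqp2 at -0.57, and of 13 blood cell probes 4 were higher and 2 lower, with Hba-a1 at 0.64 and S100a9 at 0.53. The part of these marker shifts in the serpin values was not tested.

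In liver/kidney, single mice often held the highest ratios of their group for several Serpina1 copies: ssp 04, cas 03 and dom 01 each held the highest value of their group for all 5 Serpina1 probes, and mus 03 for 4 of 5. Spretus 02 held the highest spretus value for 3 of 5, of which Serpina1a has values in only 2 spretus mice, and the lowest for Serpina1b and Serpina1c. In testis spretus 01 held the highest spretus value for 4 of 5, as many as mus 03 in liver/kidney, and in brain no mouse held more than 3 of 5. The median SD between mice of a group over clade a probes was 0.37 in liver/kidney, against 0.15 in the other clades and 0.16 over all probes tested, while it was 0.18, 0.20 and 0.17 in brain and 0.17, 0.16 and 0.15 in testis. Serpina1b had an SD of 0.56 in liver/kidney, at percentile 99.1 of all probes, Serpina1c 0.48 (98.4), Serpina1d 0.42 (97.3), Serpina12 0.38 (96.1), Serpina1e 0.36 (95.1) and Serpina1a 0.31 (91.1). Serpina5 (0.18, 58.2) and Serpina6 (0.17, 53.4) lay near the middle, and Serpinb9e, at 1.22, includes the spretus 02 spot described above. The 5 Serpina1 probes may share signal, as stated, so their values are not 5 separate observations.

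**Figure D3:**
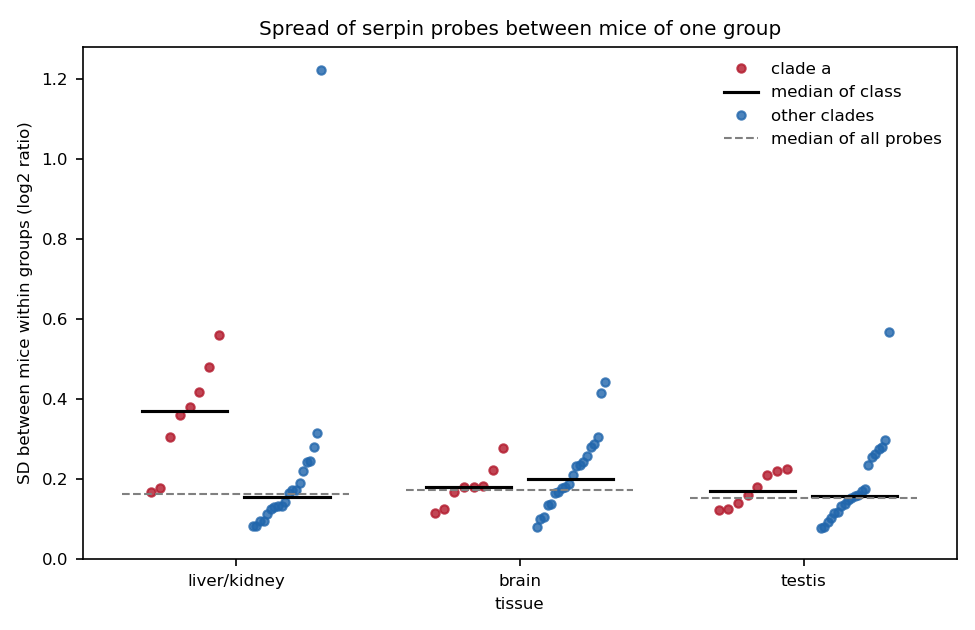
SD between mice within groups (log2 ratio) of each serpin probe in each tissue, clade a beside the other clades, with a dashed line at the median over all probes tested. In liver/kidney the clade a median of 0.37 lies above the line at 0.16, and in brain and testis both classes lie around their lines.

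In testis, 3 of 29 serpin probes were called in spretus, all outside clade a, where 9.42% of all probes were called. Serpini1 fell, and Serpinh1 probe 2 and Serpinb11 rose. The median difference was -0.02 in clade a and 0.04 in the other clades, against 0.01 over all probes.

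Serpini1 had -0.24, -0.52 and -0.70 in spretus testes, against -0.45, 0.01 and 0.32 (lowest, median, highest) in the musculus arrays. Of the 3 spretus values, 2 lay below the musculus range and 1 within it. The difference was -0.50 ± 0.10 (SE; 1.42-fold lower; limma adjusted p = 0.0013), and with array set as a term it was -0.44 with adjusted p = 0.0735. In brain, where neuroserpin is best known, Serpini1 had -0.36, -0.41 and -0.13 in spretus and -0.57, 0.05 and 0.54 in the musculus arrays, a difference of -0.37 with adjusted p = 0.0999.

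Serpinh1, known as HSP47, had 2 probes. Probe 2 gave 0.26, 0.41 and 0.64 in spretus testes, against -0.39, 0.06 and 0.35 (lowest, median, highest) in the musculus arrays, and 2 of the 3 spretus values lay above that range. Its difference was 0.37 ± 0.08 (SE; 1.29-fold higher; limma adjusted p = 0.00564). Probe 1 of the same gene gave 0.04, -0.04 and 0.20 in spretus and a difference of 0.02, so that the probes of this gene disagreed. Serpinb11 had 0.31, 0.25 and 0.26 in spretus, against -0.58, -0.02 and 0.16 in the musculus arrays, with no overlap, and differed by 0.31 ± 0.09 (SE; 1.24-fold higher; limma adjusted p = 0.0231). Its 2 duplicate spots gave differences of 0.14 and 0.45. The Serpinb11 call was lost without any one of the 3 spretus mice (0.29, 0.32 and 0.32 without 01, 02 and 03; adjusted p = 0.0776, 0.0841 and 0.0650), and that of Serpinh1 probe 2 without spretus 03 (0.27; adjusted p = 0.0817). Within array set 2, with cas and mus alone, Serpinh1 probe 2 differed by 0.37 (adjusted p = 0.0963) and Serpinb11 by 0.26 (0.0864). With quantile normalisation Serpinh1 probe 2 differed by 0.19 (adjusted p = 0.305) and Serpinb11 by 0.22 (0.211).

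**Figure D4:**
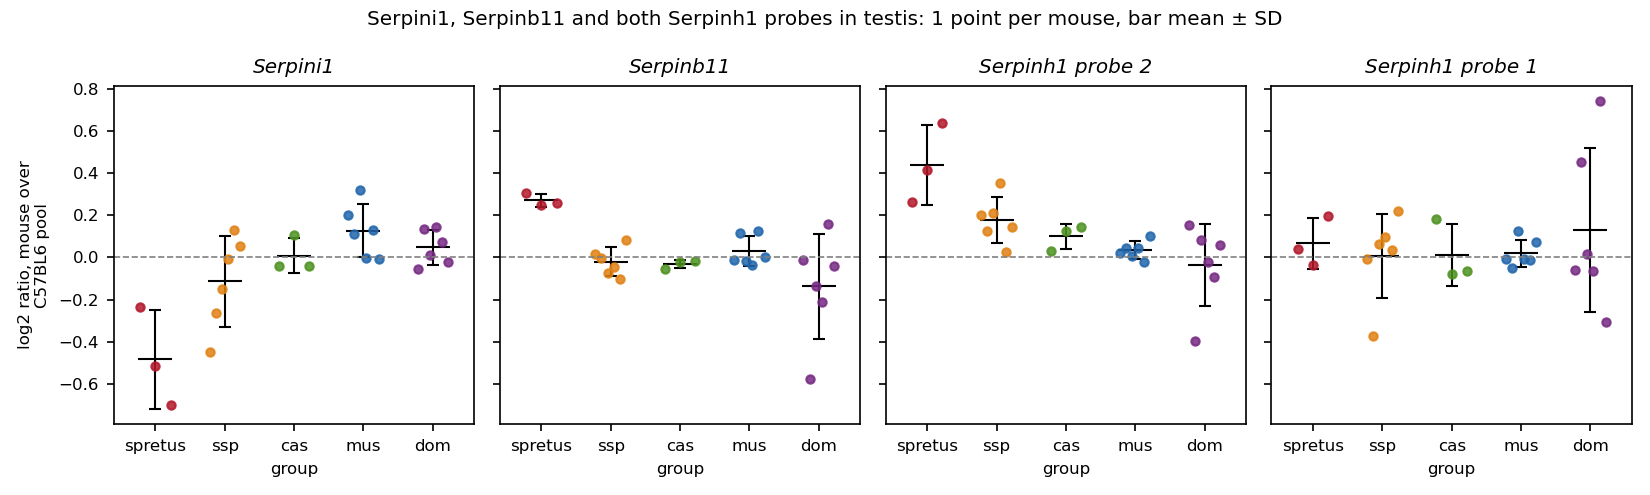
Log2 ratio to the pool in testis for Serpini1, Serpinb11 and the probes of Serpinh1, 1 point per mouse, with the mean and SD of each group. Spretus lies lowest for Serpini1 and highest for Serpinb11 and Serpinh1 probe 2, while Serpinh1 probe 1 gives 0.04, -0.04 and 0.20 in spretus.

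Outside these calls, Serpina5 had -0.48, -0.26 and -0.36 in spretus testes and differed by -0.32 (adjusted p = 0.131), Serpina1d by -0.22 (0.0778) and Serpinc1 by 0.23 (0.119). In this contrast 9.42% of all probes were called. Of 13 germ cell probes, 3 fell in spretus (Ldhc -1.03, Prm1 -0.55 and Odf1 -0.35). The mean over those of 14 germ cell probes with a value was 0.14, -0.32 and -0.15 in spretus mice, against -0.22 to 0.21 in the musculus arrays. Of 12 Sertoli and Leydig probes, 1 rose (Sox9, 0.30), with list means of -0.05 to -0.02 in spretus and -0.14 to 0.06 in the musculus arrays, and 0 of 7 epididymis probes were called by limma (2 unadjusted). Whether these marker differences take part in the serpin differences was not tested.

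Among the musculus groups, testis gave 0 calls of 29 serpin probes in mus against dom (limma called 0% of all probes there, 1367 having an unadjusted p under 0.05, 2 of them serpins), 0 in cas (0.0193% of all probes, 1 serpin unadjusted) and 0 in ssp (0% of all probes, 1009 unadjusted, 2 of them serpins). In mus against dom the highest differences were Serpinb9b at 0.42, Serpinb8 at 0.21 and Serpinb11 at 0.17, and the lowest Serpina12 at -0.28, Serping1 at -0.20 and Serpinf2 at -0.18. The Serpinb9b value rested on dom 03, at -2.49, and was -0.02 without that mouse. In cas they were Serpina5 at 0.30, Serpina1e at 0.15 and Serpinb8 at 0.12, and Serpinb2 probe 2 at -0.21 (probe 1 at 0.02), Serpinb1a at -0.18 and Serpina1c at -0.13. In ssp they were Serpinb9e at 0.20, Serping1 at 0.16 and Serpinh1 probe 2 at 0.14 (probe 1 at -0.05), and Serpini1 at -0.17, Serpinb8 at -0.17 and Serpinb1a at -0.16.

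Against the pool in testis, 5 of 29 probes were called in the musculus groups, where 13.1% of all probes were. Serpinb1a, an inhibitor of neutrophil elastase inside leukocytes, was at -0.32 ± 0.06 (SE; limma adjusted p = 0.00064), below the pool in all 21 mice, and in spretus testes it was at -0.07, -0.48 and -0.29. Serpinb9 was at -0.27 ± 0.07 (SE; adjusted p = 0.0144), below the pool in 12 of 14 arrays with a value, Serpina12 at -0.23 (0.00266) and Serpinb2 probe 2, of the gene for plasminogen activator inhibitor 2, at -0.12 (0.0324), with its probe 1 at -0.01. Serpinc1 was higher, at 0.12 (adjusted p = 0.0189), followed by Serpina1b at 0.09 and Serpinh1 probe 2 at 0.07, which were not called. In the same contrast 2 of 13 germ cell probes were higher (Tnp1 0.41 and Prm1 0.29) and 1 lower (Sycp3 -0.17), 3 of 19 hepatocyte probes were lower, and of 13 blood cell probes Hba-a1 was higher (0.42) and Epb42 lower (-0.21). Their part in the serpin values was not tested.

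In brain, 0 of 28 serpin probes were called in spretus, where limma called 3.95% of all probes, and 3 had an unadjusted p under 0.05. The largest values were Serpinf1, pigment epithelium-derived factor, at 0.39 (adjusted p = 0.409), Serpina12 at 0.32 and Serpinc1 at 0.26, and on the other side Serpinb2 probe 2 at -0.44 (0.0948), Serpini1 at -0.37 (0.0999) and Serping1, the C1 inhibitor, at -0.22. Serpinf1 had 0.24, 0.19 and 0.20 in spretus brains, and in ssp 05 it was at -2.26. Without ssp 05 its difference was 0.31 and was called (adjusted p = 0.0372). Serpinb2 probe 2 had -0.33, -0.36 and -0.57 in spretus, against -0.53, -0.03 and 0.48 (lowest, median, highest) in the musculus arrays, and probe 1 of that gene differed by 0.22. The median difference was 0.02 in clade a, 0.03 in the other clades and 0.02 over all probes. Of 13 neuron and glia probes and 10 choroid plexus and meninges probes, 0 were called in spretus by limma (2 and 0 unadjusted).

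The other brain contrasts called 0 of 28 serpin probes in mus against dom (0.223% of all probes; 1 serpin unadjusted), 0 in cas (0.0097%; 1) and 0 in ssp (0.097%; 5), all by limma. In mus against dom the highest differences were Serpini1 at 0.26, Serpina12 at 0.16 and Serpina5 at 0.11, and the lowest Serpinb9e at -0.20, Serpinh1 probe 1 at -0.14 (probe 2 at -0.09) and Serping1 at -0.12. In cas they were Serpini2 at 0.23, Serpinb2 probe 2 at 0.21 (probe 1 at -0.06) and Serpina1a at 0.20, and Serpinb9e at -0.31, Serpinc1 at -0.21 and Serpini1 at -0.19. In ssp they were Serpinb9b at 0.17, Serpind1 at 0.15 and Serpini1 at 0.10, and Serpinf1 at -0.52, Serpinb9c at -0.49 and Serpina1e at -0.29 (adjusted p = 0.141). In ssp 05 alone Serpinf1 was at -2.26 and Serpinb9c at -1.99, and without that mouse the differences were -0.18 and -0.19.

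Against the pool in brain, 2 of 28 serpin probes were called in the musculus groups, where 8.95% of all probes were: Serpina12 at -0.28 ± 0.06 (SE; limma adjusted p = 0.00483; 18 of 21 mice) and Serpina1a at 0.09 ± 0.03 (SE; adjusted p = 0.0445; 13 of 21 mice). Next were Serpinb8 at 0.09 and Serpinh1 probe 1 at 0.08 (probe 2 at -0.01), and Serpinf1 at -0.18 (-0.10 without ssp 05) and Serpinc1 at -0.16. Of 13 blood cell probes 3 were higher than the pool, Hbb-b2 (0.24), Hba-a1 (0.22) and S100a8 (0.18), and their part in the serpin values was not tested. Serpina12 was thus below the pool in the musculus groups of all 3 tissues, whose values come from the same mice.

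Whether a difference in liver/kidney departs from that in the other tissues was tested as liver/kidney minus the mean of brain and testis, over all 72 arrays with the mouse as a random block. For spretus and cas its liver/kidney part carries the overlap of array set and group given above. Array set was not fitted in this test. In spretus 7 of 28 serpin probes were called, 1 higher and 6 lower, where 4.42% of all probes were called. Lower means here that the liver/kidney difference lay below the mean of the other 2 tissues. Of the 6, only Serpina1b was itself called lower in spretus liver/kidney, while Serpinh1 probe 2 (0.37) and Serpinb11 (0.31) were called higher in spretus testis. Serpina12 was at 1.10 ± 0.22 (SE; limma adjusted p = 0.000711) and Serpina1b at -1.23 ± 0.26 (0.00128), followed by Serpina1e at -0.58 ± 0.18 (0.0457), Serpinc1 at -0.57 ± 0.17 (0.0380), Serpinb11 at -0.41 ± 0.11 (0.0174), Serpinh1 probe 2 at -0.38 ± 0.10 (0.0106; probe 1 at 0.03) and Serpinb9e at -2.17 ± 0.53 (0.00818). Without spretus 02, Serpina1b was at -0.74 (adjusted p = 0.173), Serpinc1 at -0.24 (0.675) and Serpinb9e at -0.19 (0.893), and 2 of 28 were called. Serpinh1 probe 2 was at -0.25 (adjusted p = 0.144) without spretus 01, and Serpinb11 at -0.35 (0.180) without spretus 02 and -0.43 (0.0521) without spretus 03. Serpina1e was at -0.50 (adjusted p = 0.200), -0.57 (0.168) and -0.68 (0.0586) without spretus 01, 02 and 03. It kept its call in 11 of the 24 fits that left out 1 mouse. In cas 2 were called, Serpina1b at 1.38 ± 0.27 (SE; adjusted p = 0.00317) and Serpina1a at 0.68 ± 0.17 (0.0235), where 1.82% of all probes were, and without cas 03 both lost the call (0.94, adjusted p = 0.142, and 0.44, adjusted p = 0.433). In mus against dom 0 of 28 were called by limma (0.223% of all probes; 3 serpins at an unadjusted p under 0.05) and in ssp 0 (0.0194%; 4). In mus against dom Serpina1a was at 0.36, Serpina1b at 0.35, Serpinb1a at 0.18, Serpina12 at -0.58, Serpini1 at -0.23 and Serpinb9c at -0.22. In ssp Serpina1b was at 0.59, Serpina1a at 0.39, Serpina1e at 0.31, Serpinb9e at -0.40, Serpina12 at -0.23 and Serpinb5 at -0.14. Further values not called were Serpini1 at 0.19 and Serpind1 at 0.14 in spretus, and Serpina1c at 0.57, Serpina12 at -0.31, Serpina5 at -0.21 and Serpinh1 probe 2 at -0.15 in cas.

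**Figure D5:**
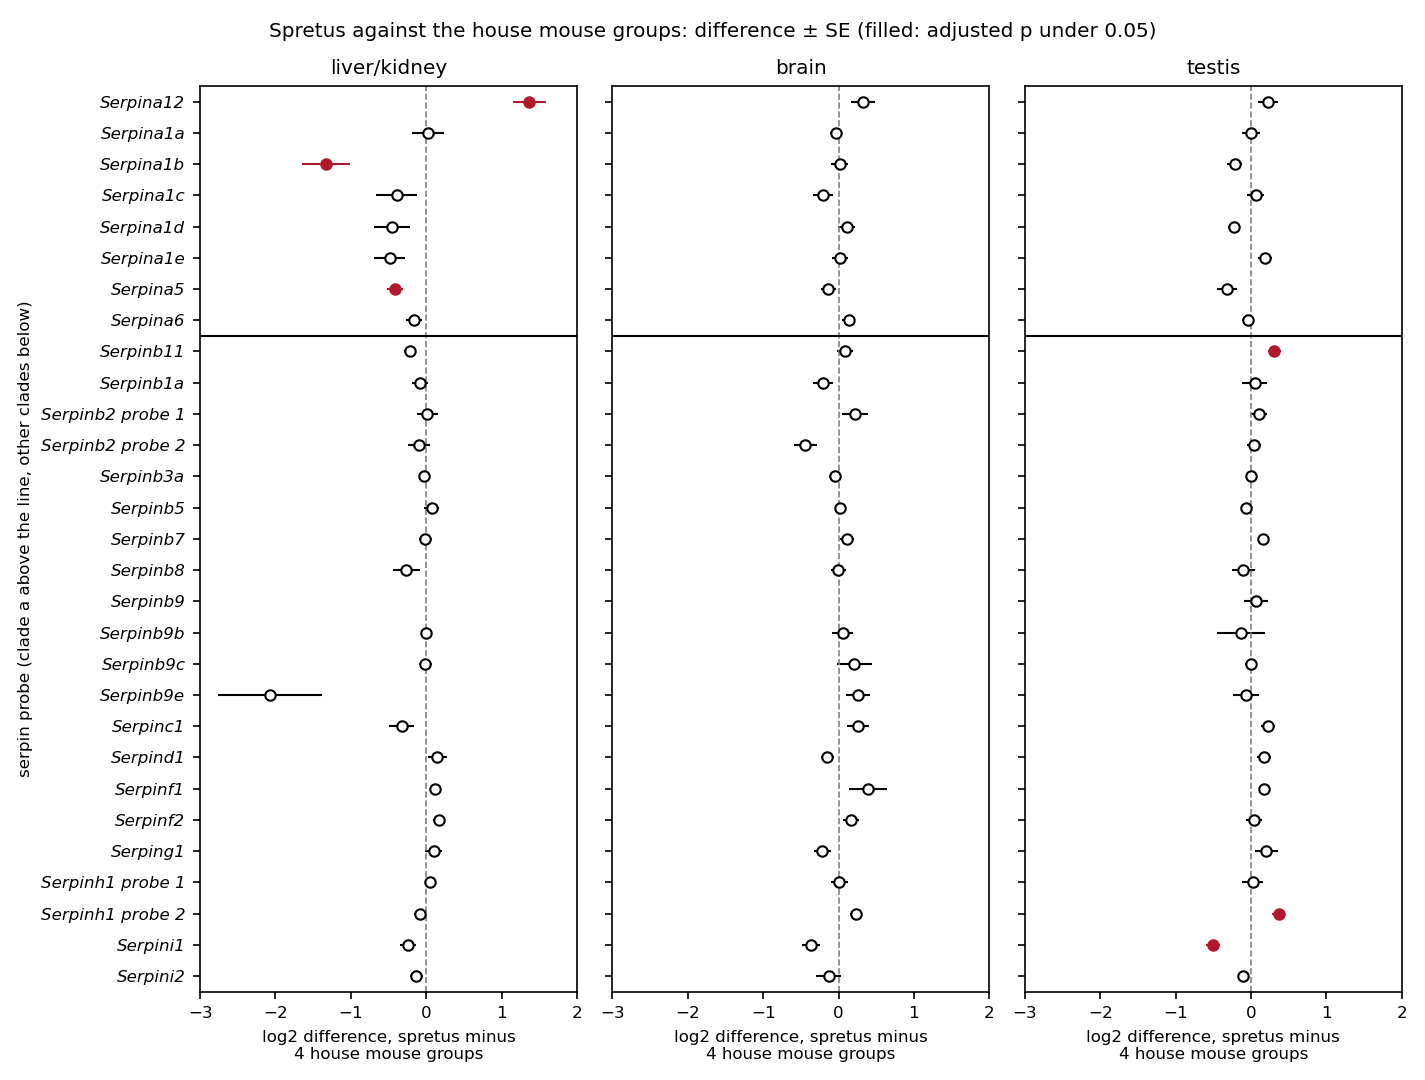
Spretus minus musculus groups on the log2 scale for each serpin probe in each tissue, with its SE, and filled where called. In liver/kidney Serpina12 is at 1.37, Serpina1b at -1.33 and Serpina5 at -0.41 (filled), and in testis Serpini1 at -0.50, Serpinh1 probe 2 at 0.37 and Serpinb11 at 0.31.

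Serpins not tested for lack of values were Serpina1f, Serpina3a, Serpina3i and Serpina9 (no value on array set 2), Serpinb6a (1 dom array with a value in each tissue) and, outside testis, Serpinb9. Fitted within array sets, they gave 0 calls by limma in the contrasts the sets allow (unadjusted p under 0.05 in 1 for Serpina1f, 1 for Serpina3i, 2 for Serpina9 and 3 for Serpinb6a), except Serpinb6a in testis within set 2, where cas and mus lay at -0.35 against the pool (adjusted p = 0.0236), a contrast in which 1.9% of all probes were called. Differences of Serpina9 ran over -0.15 to 0.22 and of Serpina3i over -0.02 to 0.17.

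Proteases and partners of the serpins were counted in spretus by list, where the share of all probes called was 9.42% for testis, 7.49% for liver/kidney and 3.95% for brain. The plasma serpins outside clade a had 0 of 5 called by limma in each tissue (0 unadjusted in brain, 1 in liver/kidney, 2 in testis). Among 12 coagulation and fibrinolysis proteases, 1 fell in each tissue: protein C (Proc, -0.37) in brain, tissue plasminogen activator (Plat, -0.28), the target of neuroserpin, in liver/kidney, and factor XI (F11, -0.33) in testis. Among 14 probes for clotting cofactors and fibrinogen, F13b (-0.39) fell in brain and fibrinogen chains Fgg (-0.62) and Fgb (-0.42) in liver/kidney. Of 11 neutrophil and mast cell proteases, Mcpt4 (0.57) rose in liver/kidney and Elane (0.32), neutrophil elastase, in testis. Of 7 kallikreins, Klk1b16 fell in liver/kidney (-0.34) and testis (-0.29) and Klk10 rose in testis (0.49), while Casp8 (-0.39) was the one of 10 cathepsins and caspases to fall, in testis. Complement proteases had 0 of 5 called by limma in each tissue, with 1 unadjusted in brain and 0 in the others.

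In cas liver/kidney the share of all probes called was 1.11%, and 2 of 22 other protease inhibitors rose there, while in spretus liver/kidney 1 rose and 1 fell. Itih4, a subunit of the inter-alpha-trypsin inhibitor family, fell in spretus (-0.52) and rose in cas (0.77), where Mug1, a murinoglobulin of plasma, also rose (0.69). In spretus, Timp3 (0.31) rose in liver/kidney, Timp4 (0.35) in brain and Spink1 (0.20) in testis, and Pebp1 (-0.42) fell in testis. Among 13 probes of hormone partners and collagens, Ttr (-1.22) fell in spretus liver/kidney and Col1a1 (0.65) rose in cas. Among 17 acute phase probes, Hamp (-0.51) and Cp (-0.36) fell in spretus liver/kidney and Lbp (0.21) rose in testis. Alpha-1-antitrypsin is itself an acute phase protein in many mammals, and the lists above overlap the marker lists in Ttr and Fgb, among others.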

How the data were processed

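The deposited values are 1 log ratio per spot and array, per the labels from two-channel arrays with the mouse in channel 2 and the pool in channel 1. They range from -5.71 to 5.77, and each array's median lies between -0.0449 and 0.0553. No source used here states the authors' scale, normalisation or direction; log2 was taken as the scale of the deposited values and mouse over pool as the likely direction, because channel 2 holds the mouse and log10 would give implausibly large ratios. Were the direction opposite, every sign would turn. The number of arrays per group (3 or 6) limits the precision.

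Of 46128 spots, 22320 pairs of duplicate spots were averaged, 1488 unpaired spots were left out, and 232 pairs for Gapdh were averaged to 1 probe, which gave 22089 probes. Probes with 1 gene symbol numbered 15801, with several 294, and unnamed 5994, by GEO's platform annotation, and 15601 matched RefSeq by Entrez ID (all 34 serpin probes). Between 42825 and 44832 spots per array had a value.

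Each array was centred on its median. limma 3.58.1 (R 4.3.3) fitted 5 group means per tissue, two-sided, with Benjamini-Hochberg adjustment over all probes tested. The tissue difference used all 72 arrays with the mouse as a random block (correlation 0.0200). The fit was tested on simulated data. Array sets were read from shared missing spots and are named in no label. Replicates are separate mice. Alternatives were other scaling, array weights, 1 spot per pair, other filters and moderation, array set as term, block or subset, mus 08 left out in brain, and each mouse left out.

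The members and lists were chosen with earlier results of these data known. Named probes were all called members, the 3 highest and 3 lowest per contrast, and up to 3 called genes of each list. Sequences are RefSeq GRCm38.p6 promoter windows, since no protein table was given. Tables were handled with pandas 2.3.3 and Python 3.11.15.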

Additional observations from a re-analysis of the deposited data

Results flagged for a closer look

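Within groups of 4 to 10 arrays, the highest or lowest mouse was tested for a gap from the others by Dixon's test at the 95% level. In 157 groups of the named serpins 15 values stood apart, some of them from the same mouse. In unselected groups chance alone marks about 1 in 20. These probes were named partly for large differences, which a single mouse can produce, so the 15 cannot be set against that rate. In brain these were Serpinb2 probe 2 in ssp 04 at 0.39, Serpinb9b in dom 03 at -0.50, Serpinf1 in ssp 05 at -2.26, Serpinb8 in ssp 06 at 0.52 and Serpinb9c in ssp 05 at -1.99. In liver/kidney they were Serpinh1 probe 1 in ssp 01 at -0.14, Serpinb2 probe 1 in ssp 06 at -1.11, Serpind1 in ssp 02 at -0.33, Serpinb9b in mus 08 at -0.19, Serpinb8 in ssp 05 at 0.81, Serpinb9e in ssp 05 at -1.07 and Serpina1c in mus 02 at -0.85. In testis they were Serpina1d in mus 08 at 0.26, Serpinb9b in dom 03 at -2.49 and Serpina1b in mus 07 at 0.36.

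The effect in liver/kidney differed from the mean of brain and testis for 9 values, by limma's test of that difference with the mouse as a random block. In cas these were Serpina1a at 0.68 (adjusted p = 0.0235) and Serpina1b at 1.38 (0.00317). In spretus they were Serpina12 at 1.10 (0.000711), Serpina1b at -1.23 (0.00128), Serpina1e at -0.58 (0.0457), Serpinc1 at -0.57 (0.0380), Serpinh1 probe 2 at -0.38 (0.0106), Serpinb11 at -0.41 (0.0174) and Serpinb9e at -2.17 (0.00818). Among the 9, only Serpina12 kept its call in all 24 fits that left out 1 mouse. The Serpinb9e value includes the spretus 02 spot described above and was -0.19 (adjusted p = 0.893) without that mouse.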

How the results depend on the processing

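Of the values of called serpin probes under the alternatives, 1004 kept their direction and call, 215 kept the direction and lost the call, and 0 turned. Most of these values, up to 24 per call, come from leaving out 1 mouse and share all arrays of the other mice with the main fit. The other alternatives gave up to 12 values per call, and a larger share of those lost the call. In brain, where spretus had 0 calls, quantile normalisation gave 1, array weights 3 and array set as a term 2. The 2 calls of the musculus groups against the pool in brain became 1 with array weights, with trend and robust moderation and with the contrast's own groups, and 0 with array set as a random block, within array set 1 or within array set 2. In liver/kidney the 2 cas calls became 0 with quantile normalisation, no centring, array weights, the first spot of each pair, trend and robust moderation or array set as a random block, and 1 with only probes valued on every array. The 3 spretus calls became 1 with array weights or array set as a random block and 0 within array set 2. The 14 calls against the pool became 1 with array set as a random block and 1 within array set 2. Mus against dom gained 1 with the contrast's own groups, and ssp gained 4 within array set 1. In testis the 3 spretus calls became 1 with quantile normalisation or the first spot, 5 with array weights, and 0 with array set as a term or within array set 2. The 5 calls against the pool became 3 with the first spot and 2 with array set as a random block, within array set 1 or within array set 2. The cause was not tested, except that fits within a set hold fewer arrays.

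Leaving out 1 mouse at a time, the number of called serpins ran over 0 to 2 in brain for spretus, 1 to 3 against the pool and 0 to 1 in cas. It ran over 1 to 5 for spretus in liver/kidney (5 without spretus 01, 1 without spretus 02), 0 to 2 in cas and 10 to 14 against the pool. In testis it ran over 1 to 5 for spretus (5 without spretus 01, 1 without spretus 03) and 3 to 6 against the pool, and in the tissue difference over 2 to 7 for spretus and 0 to 2 for cas. Brain calls in spretus were 2 without cas 03 and 1 without ssp 05, brain calls in cas were 1 without cas 02, and testis calls against the pool were 3 without cas 03. In the other contrasts it stayed at 0. The cas calls in liver/kidney fell to 0 without cas 02 or cas 03 and without many single dom, mus, ssp or spretus mice. The Serpina1e tissue difference had an adjusted p of 0.0504 without the mouse as a block.

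With the mouse's number as a replicate block, brain gave 3 calls against the pool in place of 2, and liver/kidney gave 2 in cas, 3 in spretus and 14 against the pool, testis 3 in spretus and 5 against the pool, and the other contrasts 0. The numbers name mice within a group and pair none across groups. The array set, the unstated normalisation, the single pool and the untested match of each group's sequences to the probes limit these values.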
